A study of Sus scrofa with 27 samples.

Results

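The genes described here are the ligands and receptors of the epidermal growth factor (EGF) receptor family and the EGF receptor inhibitor ERRFI1, followed in pig lungs during ex vivo lung perfusion (EVLP). They were chosen by symbol: of 9 symbols (AREG, EREG, HBEGF, TGFA, BTC, EGFR, ERBB2, ERBB3 and ERRFI1), 8 stand in the gene name column of the count table, out of 31908 genes in all. All 8 reached at least 10 counts in some library, so 0 were dropped. The row described as betacellulin, ENSSSCG00000008965, has no gene name in the table, and the reference name list pairs its identifier with BTC. It was therefore analysed beside the 8 genes but not counted among them.

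EVLP keeps a donor lung ventilated and perfused at body-like temperature outside the body so that it can be assessed or treated before transplantation. Lungs of Large-White pigs were taken in a non-heart-beating donor model and kept through a cold ischemia. They were then perfused by the Toronto protocol with Steen solution containing methylprednisolone, cefuroxime and heparin. Both groups thus started with the same glucocorticoid, whose level during EVLP is not given in the sources used here. In the Gold Standard (GS) group, from 5 pigs, part of the perfusate was replaced at intervals. In the Pediatric Dialysis (PD) group, from 4 pigs, the circuit was instead connected to continuous veno-venous hemodialysis through a pediatric membrane. A lung biopsy of each pig was sequenced at 0h (after the ischemia, before EVLP), at 6h and at 12h, which gives 27 libraries of whole tissue. Neither the sex nor the age of the pigs is stated in the sources used here, and EVLP without any perfusate exchange or dialysis was not analysed here.

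The family works as a relay at the cell surface. Amphiregulin (AREG), epiregulin (EREG), heparin-binding EGF-like growth factor (HBEGF), transforming growth factor alpha (TGFA) and betacellulin (BTC) are made as membrane-anchored precursors, and proteases such as ADAM17 shed the active ligand. A ligand binds EGFR, or for some ligands ERBB4, which then pairs with itself or with a partner. ERBB2 has no known ligand of its own and acts as the preferred partner, while ERBB3 binds neuregulins and has little kinase activity. Activated receptors signal through the RAS-ERK and PI3K cascades, and ERRFI1 (MIG6) binds the EGFR kinase domain and blocks it as a feedback inhibitor. In lung the pathway is known for its part in the repair of alveolar and airway epithelium after injury.

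In GS lungs 4 of the 8 genes rose at 6h and at 12h: AREG, EREG, HBEGF and ERRFI1. Of all genes tested, 11.1% and 15.7% were called at these times. The HBEGF call at 6h was lost without GS pig 44, 55 or 77 and without the filter on low counts. In PD lungs AREG, EREG and HBEGF rose at 12h, where 5.98% of all genes were called. These calls were lost without PD pig 3 and without PD pig 5, where 0 genes of the whole table were called. At 6h in PD 0 of the 8 genes passed the test, where 0.142% of all genes were called by edgeR, while DESeq2 and a fit of all 27 libraries each called 4 (AREG, EREG, HBEGF and ERRFI1), among 428 and 479 genes of the whole table. With all pigs none of the 3 receptor rows was called in either group at either time. Of these, the row named ERBB3 cannot be read as the receptor alone. Without PD pig 2, EGFR was called higher in PD at 12h (1.40, adjusted p = 0.0227, edgeR). The change from 0h was not found to differ between PD and GS for any of the 8 genes. Before EVLP, EGFR, ERRFI1 and TGFA were lower in PD than in GS, and the row named ERBB3 was higher. The TGFA call was lost without GS pig 17, 44 or 77 and without PD pig 3 or 5.

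Per library, 26335584 to 67522703 counts fell on genes in GS, with a median of 53623755, and 14650700 to 21820935 in PD, with a median of 19344265. The depths of the groups did not overlap, so a batch of libraries and the group cannot be told apart in any comparison of PD with GS. The tissue markers fit lung: the summed level of the alveolar type 2 markers found (6 of 7 listed) was 6920 to 9630 CPM (counts scaled to the library's total) in GS at 0h and 26600 to 78200 in PD at 0h. Of these 6 markers, 2 were called higher and 1 lower in PD than in GS at 0h. In whole tissue, fewer cells of a type and less RNA per cell cannot be told apart. The PD 12h library of pig 2 was the shallowest of the 27 (14650700 counts) and had the highest median level of the 58 rows named as ribosomal proteins (12.06 on the log2 CPM scale, against 10.05 to 10.83 in the other 3 PD libraries at 12h). Results of the family genes and betacellulin against 0h in PD are given with all 4 pigs. They are also given without pig 2 where that changed a call, a direction or a value by over 1.5 times or where pig 2 ran against the other pigs. PD results of the marker and pathway lists are not given without pig 2. Over all genes edgeR called 98 at 6h and 3826 at 12h in PD without pig 2, against 22 and 930 with all pigs. Within GS, the libraries of pigs 9 and 17 were shallower (26335584 to 41802541 counts) than those of pigs 44, 55 and 77 (51708598 to 67522703 counts), without overlap. Without pigs 9 and 17, a setting chosen after the data had been seen, AREG, EREG, HBEGF and ERRFI1 were again the family genes called in GS at 6h and at 12h. In that setting edgeR called 2760 and 3585 genes of the whole table, against 2057 and 2911 with all pigs.

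All values below are CPM, scaled by edgeR's TMM factors, with 0.5 added to each count, and are levels within 1 gene, since CPM is not corrected for gene length. Each group was fitted alone by edgeR's quasi-likelihood F test with the pig as replicate block. A call required both a 2-fold change and a p below 0.05 after Benjamini-Hochberg adjustment over all genes tested. Fold changes are log2 with their standard error (SE). The 6h and the 12h comparison of a group share its 0h libraries and are not independent of each other.

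The 4 genes that rose in GS lie on 3 chromosomes of the Sscrofa11.1 assembly. EREG (ENSSSCG00000038185, chr8:70351309-70372518, plus strand) and AREG (ENSSSCG00000008963, chr8:70417923-70428102, plus strand) are neighbours, and the betacellulin row (chr8:70649312-70697907, minus strand) lies in the same region. HBEGF (ENSSSCG00000014362) lies at chr2:142102456-142115344 on the minus strand and ERRFI1 (ENSSSCG00000035774) at chr6:68669153-68682624 on the minus strand. The 250 bases before the annotated start of each are shown because these genes were all called higher in GS at 6h and at 12h. They were read from the RefSeq copy of the Sscrofa11.1 genome, at chr8:70417673-70417922 (plus) for AREG, chr8:70351059-70351308 (plus) for EREG, chr2:142115345-142115594 (minus) for HBEGF and chr6:68682625-68682874 (minus) for ERRFI1. Each is written 5′ to 3′ in the direction of transcription, and capitals mark matches to the searched motifs.
AREG: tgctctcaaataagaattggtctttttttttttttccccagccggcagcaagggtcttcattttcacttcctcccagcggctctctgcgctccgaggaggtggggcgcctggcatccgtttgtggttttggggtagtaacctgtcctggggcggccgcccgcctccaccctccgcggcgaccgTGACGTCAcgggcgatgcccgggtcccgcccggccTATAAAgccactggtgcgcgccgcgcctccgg
EREG: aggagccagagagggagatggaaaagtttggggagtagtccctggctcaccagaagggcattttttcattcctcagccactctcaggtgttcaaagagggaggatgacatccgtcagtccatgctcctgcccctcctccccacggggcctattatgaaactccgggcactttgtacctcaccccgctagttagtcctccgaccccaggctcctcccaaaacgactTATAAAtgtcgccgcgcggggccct
HBEGF: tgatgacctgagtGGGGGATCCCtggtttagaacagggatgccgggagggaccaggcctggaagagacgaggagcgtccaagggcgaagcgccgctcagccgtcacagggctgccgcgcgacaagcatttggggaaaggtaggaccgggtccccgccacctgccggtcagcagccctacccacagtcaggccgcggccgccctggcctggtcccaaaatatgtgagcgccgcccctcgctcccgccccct
ERRFI1: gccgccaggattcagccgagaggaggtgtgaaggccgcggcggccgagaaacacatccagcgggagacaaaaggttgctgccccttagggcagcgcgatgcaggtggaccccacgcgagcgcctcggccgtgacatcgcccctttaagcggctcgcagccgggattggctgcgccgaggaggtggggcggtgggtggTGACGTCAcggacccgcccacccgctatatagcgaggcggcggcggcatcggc

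The motifs searched, on both strands, were the cyclic AMP response element TGACGTCA, the AP-1 element TGANTCA, the TATA box TATAAA, the NF-kB element and the CArG box. TGACGTCA stands 67 bases before the start of AREG and 53 bases before that of ERRFI1, and in 1.77% of the 20273 windows of the same length before protein-coding genes. TATAAA stands 32 bases before AREG and 25 bases before EREG, and in 10.3% of all windows. A match to the NF-kB element stands 237 bases before HBEGF, and also before TGFA and ERBB2, and in 9.46% of all windows. TGANTCA (5.24% of windows) and the CArG box (1.33%) were found in none of the windows before the annotated starts of the 8 rows. The window of the ERBB3 row ends at chr5:21431655, just before RPS26, and RefSeq starts ERBB3 itself at chr5:21474218. That of EGFR ends at chr9:139300021, and RefSeq starts EGFR at chr9:139302410. For these 2 receptors the bases before the RefSeq start were not searched. These matches describe the letters of the windows, and no binding was measured.

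AREG, a low-affinity EGFR ligand of epithelial and immune cells, was near the lower end of detection before EVLP and had the largest fold change of the 8 genes in GS at both times. In GS at 0h its level was 3.80, 0.405, 0.953, 0.655 and 1.11 CPM in pigs 9, 17, 44, 55 and 77, from 14 to 128 counts. At 6h the same pigs, in the same order, stood at 31.2, 9.45, 15.3, 11.5 and 14.2 CPM. At 12h they stood at 9.17, 9.34, 16.1, 28.0 and 20.7 CPM. Every GS library at 6h and 12h was above every GS library at 0h. The log2 fold change was 3.75 (SE 0.44, adjusted p = 0.000274, edgeR), or 13.5-fold, at 6h and 3.94 (SE 0.46, adjusted p = 0.000117), or 15.4-fold, at 12h. Without the shallower pigs 9 and 17 it was 3.93 (adjusted p = 5.63e-05), or 15.2-fold, at 6h and 4.59 (adjusted p = 2.08e-05), or 24.1-fold, at 12h.

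In PD, AREG was at 10.1, 3.13, 2.96 and 0.983 CPM at 0h in pigs 2, 3, 4 and 5. At 6h it was at 36.1, 16.1, 19.9 and 13.9 CPM. At 12h it was at 30.9, 33.0, 20.0 and 26.7 CPM. As in GS, no library during EVLP overlapped with a library at 0h, and pig 2 started above the other 3 pigs. At 12h AREG rose by a log2 fold change of 3.09 (SE 0.49, adjusted p = 0.0170, edgeR), or 8.50-fold. The 12h call was lost without pig 3 (2.95, adjusted p = 0.171) and without pig 5 (2.60, adjusted p = 0.246). At 6h the log2 fold change was 2.57 (SE 0.48) with an adjusted p of 0.0703, which missed the threshold, and DESeq2 gave 2.59 with an adjusted p of 8.52e-06. Without pig 2 the 6h value was 2.88 and passed (adjusted p = 0.0264, edgeR), and the 12h value was 3.58 (adjusted p = 0.00820).

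**Figure D1:**
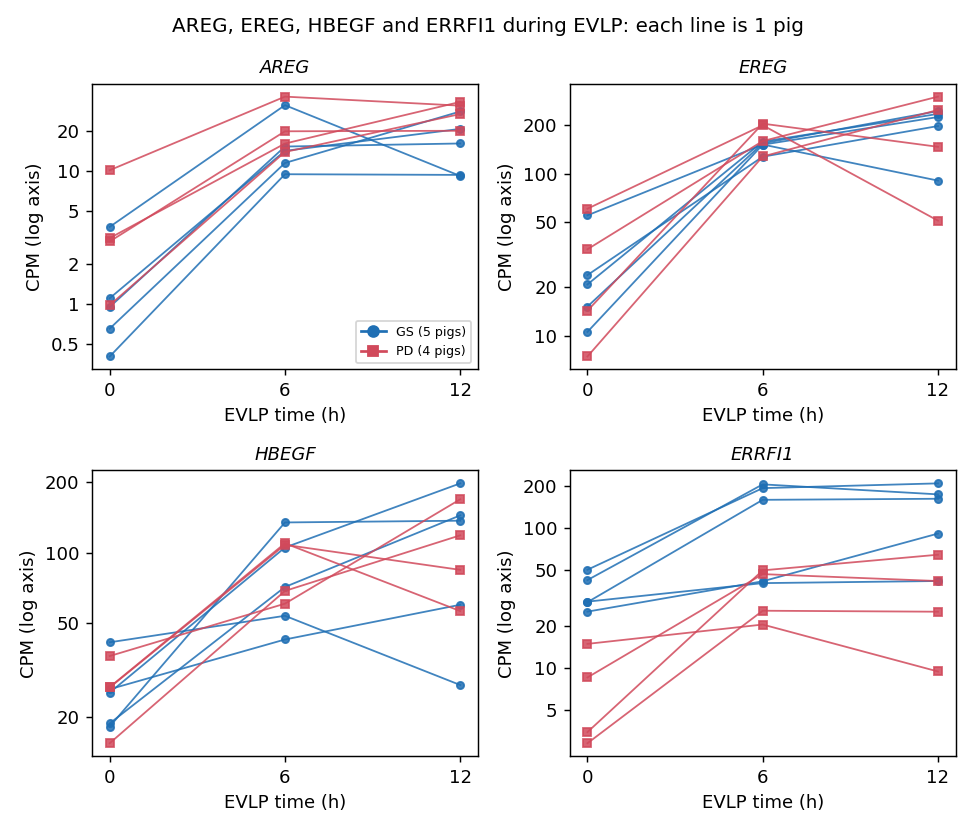
Level of AREG, EREG, HBEGF and ERRFI1 in CPM (log axis) against EVLP time in hours, with each line 1 pig (5 GS, 4 PD). AREG in every pig was higher at 6h and 12h than at 0h, EREG of PD pig 2 and HBEGF of GS pig 9 were below their 0h level at 12h, and ERRFI1 of PD started below every GS pig.

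EREG, a ligand of EGFR and ERBB4, was next in size in GS. In GS at 0h its level was 55.3, 23.7, 10.6, 15.2 and 20.8 CPM in pigs 9, 17, 44, 55 and 77. At 6h it was 151, 127, 151, 154 and 157 CPM, a narrow range despite the spread at 0h. At 12h it was 90.5, 196, 223, 242 and 233 CPM. No GS library during EVLP overlapped with one at 0h, and pig 9, which began highest, was lowest at 12h. EREG rose by a log2 fold change of 2.65 (SE 0.39, adjusted p = 0.000735, edgeR) at 6h and 3.09 (SE 0.41, adjusted p = 0.000225) at 12h, which is 6.29-fold and 8.50-fold. Without pigs 9 and 17 the values were 3.35 (adjusted p = 2.35e-05), or 10.2-fold, and 3.95 (adjusted p = 1.07e-05), or 15.4-fold.

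In PD, EREG stood at 60.8, 34.2, 7.49 and 14.3 CPM at 0h in pigs 2, 3, 4 and 5. It stood at 198, 158.5, 127 and 203 CPM at 6h and at 51.3, 297.5, 246 and 146 CPM at 12h. The groups of libraries at 0h and 6h did not overlap, whereas at 12h pig 2 was below its own 0h level and the other 3 pigs were above every 0h library. EREG rose at 12h by 2.92 (SE 0.72, adjusted p = 0.0397, edgeR), and the log2 fold change at 6h was 2.77 (SE 0.68, adjusted p = 0.169). The 6h value was called by DESeq2 (2.79, adjusted p = 0.000749) and with all libraries in 1 fit (adjusted p = 0.0181, edgeR). Without pig 4 the 12h value was 2.21 with an adjusted p of 0.124, without pig 3 it was 2.80 (adjusted p = 0.240) and without pig 5 it was 2.78 (adjusted p = 0.299), so the call rests on each of these pigs. Without pig 2 the 6h value was 3.33 and passed the test (adjusted p = 0.0240), and the 12h value was 3.78 (adjusted p = 0.00820), above that of AREG without the same pig (3.58).

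HBEGF, a ligand that binds heparan sulfate as well as EGFR and ERBB4, rose less. In GS it was at 41.6, 26.3, 18.2, 18.8 and 25.4 CPM at 0h in pigs 9, 17, 44, 55 and 77. It was at 53.9, 42.7, 134, 71.4 and 105 CPM at 6h and at 27.4, 60.0, 137, 144 and 197 CPM at 12h. All 5 pigs were higher at 6h than at 0h and 4 of 5 at 12h, and pig 9 was below its 0h level at 12h. The log2 fold change was 1.44 (SE 0.43, adjusted p = 0.0246, edgeR), or 2.71-fold, at 6h and 1.85 (SE 0.44, adjusted p = 0.00629), or 3.60-fold, at 12h. The 6h call was lost without pig 44 (adjusted p = 0.117), without pig 55 (0.0762), without pig 77 (0.0814) and without the filter on low counts (0.0897), while the 12h call was kept in all of these. Without the shallower pigs 9 and 17 the values were 2.31 at 6h (adjusted p = 0.000133) and 2.94 at 12h (adjusted p = 3.22e-05).

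In PD, HBEGF was at 36.4, 26.7, 26.8 and 15.5 CPM at 0h in pigs 2, 3, 4 and 5. It was at 60.7, 108, 109.5 and 68.7 CPM at 6h and at 168, 84.5, 56.4 and 118 CPM at 12h. No PD library during EVLP overlapped with one at 0h. HBEGF rose at 12h by 2.03 (SE 0.43, adjusted p = 0.0277, edgeR), or 4.10-fold, and its log2 fold change at 6h was 1.78 (SE 0.43, adjusted p = 0.157). The 6h value was called by DESeq2 (1.79, adjusted p = 0.00351) and with all libraries in 1 fit (adjusted p = 0.0468, edgeR). Pig 2, which had the lowest EREG at 12h, had the highest HBEGF. The call at 12h was lost without pig 3 (adjusted p = 0.193) and without pig 5 (0.294), as was that of AREG. In those fits of 3 pigs 0 genes of the whole table were called at 12h.

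TGFA, the EGFR ligand of many epithelia, was scarce, and it passed the test at no time during EVLP. In GS it was at 1.94, 3.20, 3.01, 1.35 and 3.09 CPM at 0h in pigs 9, 17, 44, 55 and 77. It was at 6.32, 19.2, 3.71, 2.52 and 3.83 CPM at 6h and at 6.11, 16.9, 3.67, 6.91 and 1.53 CPM at 12h. Pig 17 was far above the other pigs at both times, and pig 77 was lower at 12h than at 0h. The log2 fold changes in GS were 1.05 (SE 0.44, adjusted p = 0.0890, edgeR) and 1.11 (SE 0.45, adjusted p = 0.0663), and DESeq2 called both (adjusted p = 0.0295 and 0.0137). Without pig 77 both passed in edgeR too (1.35 and 1.61, adjusted p = 0.0386 and 0.0112). In PD the level was 0.947 to 1.34 CPM at 0h, 0.538 to 5.86 CPM at 6h and 2.21 to 5.90 CPM at 12h, from 8 to 105 counts. The 4 PD libraries at 12h were all above those at 0h, with a log2 fold change of 1.76 (SE 0.58, adjusted p = 0.0933, edgeR). DESeq2 called it (1.81, adjusted p = 0.0120), as did the fit of all libraries (1.78, adjusted p = 0.0306, edgeR). Without pig 2 it was 2.19 and passed (adjusted p = 0.0212), and the 6h value went from 0.75 to 1.38 (adjusted p = 0.192). Without the shallower GS pigs 9 and 17 the GS values were 0.44 and 0.67 (adjusted p = 0.542 and 0.350).

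Betacellulin, a ligand of EGFR and ERBB4, was not called in any comparison with 0h. Its row ranged from 26.1 to 57.6 CPM in GS at 0h, from 32.6 to 207 CPM at 6h and from 35.0 to 118 CPM at 12h. In PD it ranged from 55.7 to 97.5 CPM at 0h, from 71.4 to 201 CPM at 6h and from 28.0 to 449 CPM at 12h. The log2 fold changes lay between 0.40 (PD at 6h) and 0.73 (PD at 12h), with adjusted p from 0.110 to 0.835. The spread at 12h in PD ran from below every 0h library, in pig 2, to above every 6h library, in pig 4. Without pig 2 the PD values were 0.05 at 6h (adjusted p = 0.963) and 1.18 at 12h (adjusted p = 0.132).

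The ligands can be set beside each other only per length. Divided by the exon bases of their RefSeq models, which are not the models the counts were made on, the median levels in GS at 0h were 10.4 CPM per kb for betacellulin, 9.62 for HBEGF, 4.72 for EREG, 0.788 for AREG and 0.527 for TGFA. The ranges of neighbours in this order overlapped, including HBEGF (6.90 to 15.7) with EREG (2.41 to 12.6) and AREG (0.335 to 3.15) with TGFA (0.235 to 0.560). In GS at 12h the order by median was HBEGF (51.7 CPM per kb), EREG (50.6), AREG (13.3), betacellulin (9.10) and TGFA (1.07). HBEGF (10.4 to 74.5) and EREG (20.5 to 55) overlapped across pigs, as did AREG (7.59 to 23.1) and betacellulin (7.44 to 25.1), and the TGFA range (0.268 to 2.96) lay below all the others. In PD at 12h the order was EREG (44.5 CPM per kb), HBEGF (38.4), betacellulin (27.5), AREG (23.8) and TGFA (0.815), again with TGFA alone clear of the rest (0.387 to 1.03).

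ERRFI1, the intracellular inhibitor of EGFR that is itself a target of the pathway and of glucocorticoids, rose in GS at both times. In GS at 0h it was at 29.8, 25.3, 29.6, 50.4 and 42.6 CPM in pigs 9, 17, 44, 55 and 77. At 6h it was at 40.5, 41.7, 159.5, 193 and 206 CPM. At 12h it was at 41.9, 91.5, 162, 209 and 174.5 CPM. Pigs 44, 55 and 77 were well above the other pigs at 6h, and pig 9 stayed lowest at both times. The pair lower at 6h, pigs 9 and 17, was also the shallower pair, and the part of depth was not tested. The log2 fold change was 1.53 (SE 0.28, adjusted p = 0.00228, edgeR) at 6h and 1.71 (SE 0.28, adjusted p = 0.000754) at 12h, with all 5 pigs higher. Without pigs 9 and 17 the values were 2.22 (adjusted p = 3.41e-05) and 2.18 (adjusted p = 2.55e-05).

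In PD, ERRFI1 was at 14.9, 8.56, 2.90 and 3.48 CPM at 0h in pigs 2, 3, 4 and 5. It was at 20.5, 46.9, 25.7 and 49.9 CPM at 6h and at 9.44, 41.9, 25.3 and 64.6 CPM at 12h. At 12h pig 2 was below its 0h level and the other 3 pigs were above every 0h library. The fitted log2 fold changes were 2.22 (SE 0.67, adjusted p = 0.275, edgeR) at 6h and 2.16 (SE 0.69, adjusted p = 0.0843) at 12h, and neither passed the test. DESeq2 called both (adjusted p = 0.0113 and 0.00341). Without pig 2 the values were 3.07 (adjusted p = 0.0209) and 3.15 (adjusted p = 0.00820). Without the replicate block the 12h value was 2.26 and passed (adjusted p = 0.0337).

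**Figure D2:**
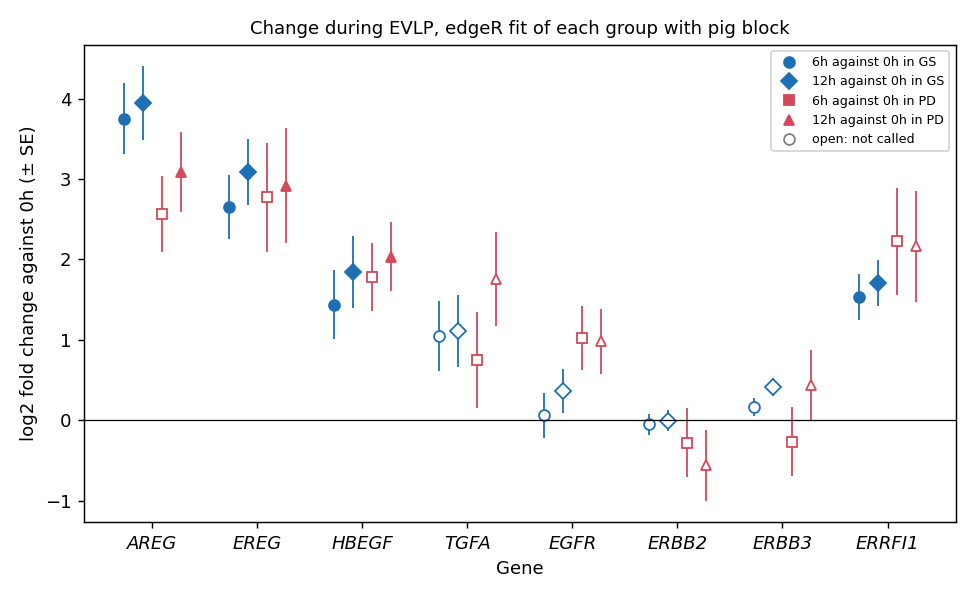
Log2 fold change against 0h from the edgeR fit of each group, with bars of ± 1 SE, for GS and PD at 6h and 12h, where filled symbols passed the test and open symbols did not. The values of AREG, EREG, HBEGF and ERRFI1 lie from 1.44 to 3.94, and those of the receptor rows from -0.56 to 1.03.

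EGFR (ENSSSCG00000022126, chr9:139300022-139478882, plus strand), the receptor of all 5 ligands, was at 128, 96.4, 81.7, 123 and 159.5 CPM at 0h in GS pigs 9, 17, 44, 55 and 77. At 6h it was at 250.4, 227.5, 79.5, 80.35 and 82.0 CPM, and at 12h at 205, 304, 99.6, 118 and 141 CPM. Pigs 9 and 17 were well above their 0h level at both times, whereas pigs 55 and 77 were below it at both. The log2 fold change was 0.06 at 6h (interval of 2 SE either way -0.49 to 0.62, adjusted p = 0.888, edgeR) and 0.36 at 12h (-0.18 to 0.91, adjusted p = 0.308). A 2-fold rise, 1 on this scale, lies outside both intervals. Pigs 9 and 17 are the shallower GS pigs, and the part of depth in this split was not tested. Without them the value at 6h was -0.53 (adjusted p = 0.0370), under the 2-fold threshold, and at 12h 0.0049 (adjusted p = 0.985).

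In PD, EGFR was at 43.6, 47.2, 41.3 and 49.6 CPM at 0h in pigs 2, 3, 4 and 5. It was at 53.5, 73.8, 159.8 and 123 CPM at 6h and at 35.3, 143.5, 151 and 83.0 CPM at 12h. All 4 pigs were higher at 6h, and 3 of 4 at 12h, pig 2 being the exception. The log2 fold changes were 1.03 (SE 0.40, adjusted p = 0.454, edgeR) and 0.98 (SE 0.41, adjusted p = 0.163), and neither passed. Without pig 2 the 12h value was 1.40 and passed (adjusted p = 0.0227).

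ERBB2 (ENSSSCG00000017497, chr12:22590725-22621351, minus strand), the partner receptor, had the log2 fold changes closest to 0 of the 8 genes in GS. It was at 38.4, 57.3, 64.9, 80.0 and 74.0 CPM at 0h in pigs 9, 17, 44, 55 and 77, at 38.7, 59.6, 72.5, 65.3 and 68.9 CPM at 6h, and at 29.7, 59.5, 86.2, 68.4 and 88.0 CPM at 12h. The differences between pigs were larger than those between times. The log2 fold change was -0.05 at 6h (-0.31 to 0.20 over 2 SE, adjusted p = 0.796, edgeR) and -0.0048 at 12h (-0.26 to 0.25, adjusted p = 0.979). In PD it was at 52.7 to 78.9 CPM at 0h, 37.6 to 73.3 CPM at 6h, and 85.1, 35.9, 25.96 and 40.7 CPM at 12h in pigs 2, 3, 4 and 5. At 12h pig 2 was above every 0h library and the other 3 pigs were below every one. The log2 fold change at 12h in PD was -0.56 (-1.43 to 0.31, adjusted p = 0.465). It was -1.01 (-1.71 to -0.31, adjusted p = 0.0579) without pig 2 and -0.16 (adjusted p = 0.895) without pig 4, and neither passed the test.

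**Figure D3:**
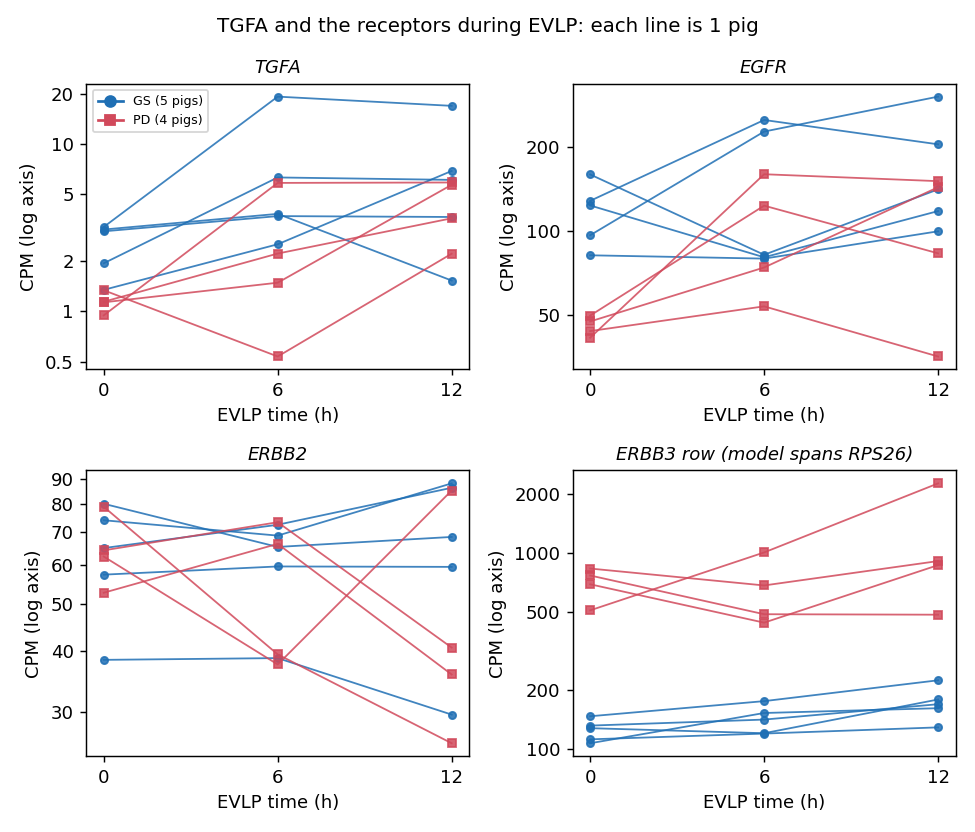
Level of TGFA, EGFR, ERBB2 and the row named ERBB3 in CPM (log axis) against EVLP time in hours, with each line 1 pig (5 GS, 4 PD). EGFR was higher at 6h and 12h in GS pigs 9 and 17 and not in pigs 55 and 77, ERBB2 lay between 25.96 and 88.0 CPM throughout, and the ERBB3 row of PD lay above that of GS in every library.

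The row named ERBB3 (ENSSSCG00000020725, chr5:21431656-21496279, plus strand) cannot be read as the receptor alone. Its gene model starts at the same base as RPS26, a ribosomal protein gene, which RefSeq places at chr5:21431656-21433691 on the same strand. RefSeq places ERBB3 itself at chr5:21474218-21495040, and 0 rows of the count table bear the name RPS26. The model also overlaps the neighbouring row ENSSSCG00000039506 by 9968 bases and PA2G4 by 283 bases, all on the same strand. Reads of RPS26 and of ERBB3 in this row cannot be told apart. Among 13775 genes, the 3 whose levels ran most like it over the 27 libraries, after each pig's mean was removed, were RPL6 (r = 0.98), RPL11 (0.96) and RPL14 (0.96), and the 58 rows named as ribosomal proteins had a median r of 0.87 with it. The row's level was 106 to 146 CPM in GS at 0h, 119 to 174.5 CPM at 6h and 128 to 223 CPM at 12h. In PD it was 507 to 829 CPM at 0h, 439 to 1001 CPM at 6h and 482 to 2253 CPM at 12h, with pig 2 at the top at both later times.

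The ERBB3 row of GS had a log2 fold change of 0.16 at 6h (SE 0.11, adjusted p = 0.283, edgeR) and 0.42 at 12h (SE 0.11, adjusted p = 0.00987), the latter under the 2-fold threshold, with medians of 0.17 and 0.35 over the 58 ribosomal rows. In PD it was -0.26 (SE 0.43, adjusted p = 0.824) and 0.44 (SE 0.44, adjusted p = 0.581), with ribosomal medians of -0.48 and 0.20. Without pig 2 the PD values were -0.55 (adjusted p = 0.313) and -0.08 (adjusted p = 0.858), so at 12h the direction turned. The ribosomal rows were brought in after the values of the ERBB3 row had been seen.

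**Figure D4:**
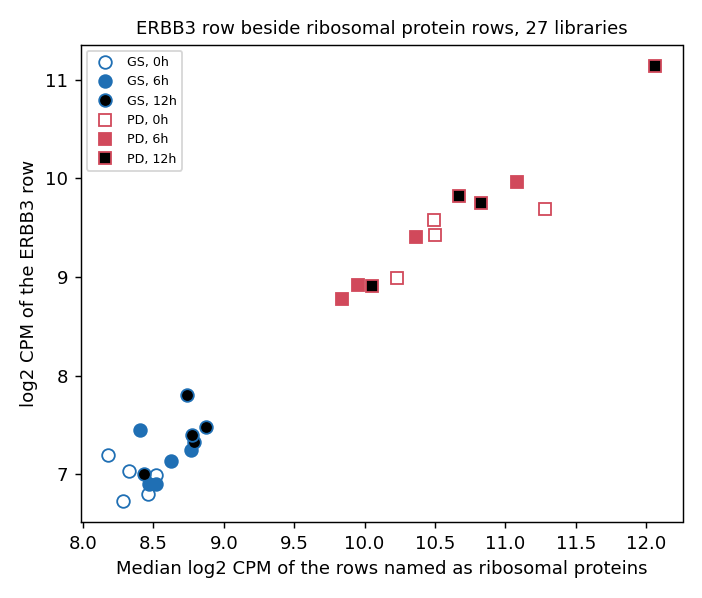
Log2 CPM of the ERBB3 row against the median log2 CPM of the 58 rows named as ribosomal proteins, with each point 1 of the 27 libraries, coloured by group and filled by time. All PD libraries lie above all GS libraries on both axes, and the PD 12h library of pig 2 lies highest on both.

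Between 6h and 12h no gene of the family was called in either group. In GS the log2 differences (12h against 6h) lay between 0.05 for ERBB2 and 0.44 for EREG, and 1 of the 8 genes had an unadjusted p below 0.05, the ERBB3 row (0.25, unadjusted p = 0.0370, adjusted p = 0.9995 by edgeR). In PD they lay between -0.28 for ERBB2 and 1.01 for TGFA, with 0 genes at an unadjusted p below 0.05. DESeq2 called 0 of the 8 in both. Across all genes edgeR called 0% in GS and 0% in PD, with 882 and 1562 genes at an unadjusted p below 0.05, and DESeq2 called 1 and 221.

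Whether dialysis altered the change from 0h was asked in a fit of all 27 libraries (interaction of group and time) and by exact permutation of the 9 pigs' log2 ratios. The interaction called 0 of the 8 genes at 6h and 0 at 12h, with 0 at an unadjusted p below 0.05 at either time. Across all 17884 genes tested edgeR called 0% at both times, with 1046 and 1069 genes at an unadjusted p below 0.05, and DESeq2 called 7 and 15 genes and 0 of the 8. AREG had the largest difference, with a smaller change in PD at 6h (-1.23, SE 0.64, adjusted p = 0.783). EGFR followed with a larger change in PD at 6h (0.94, SE 0.49, adjusted p = 0.783). For ERRFI1 the difference was 0.67 at 6h (-0.72 to 2.06 over 2 SE) and 0.43 at 12h (-0.99 to 1.84), and for HBEGF 0.34 (-0.92 to 1.596) and 0.16 (-1.12 to 1.44). These intervals reach past 2-fold in at least 1 direction, so for these genes a 2-fold difference between the groups would not have been resolved. The direction for HBEGF turned without GS pig 9 (-0.06 at 6h and -0.39 at 12h) and without GS pigs 9 and 17 (-0.51 and -0.87), and at 12h also without GS pig 17 (-0.03), without PD pig 5 (-0.12) and without the replicate block (-0.10). For ERRFI1 it turned at 12h without PD pig 5 (-0.21, and -0.19 by the permuted ratios). No direction is therefore drawn for these differences.

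By exact two-sided permutation, where 126 divisions of the pigs allow no p below 0.00794, 0 of the 8 genes reached an unadjusted p of 0.05 at 6h or at 12h. Over all genes 9.85% did so at 6h and 5.73% at 12h. The AREG ratio at 6h averaged 2.69 ± 0.84 (SD, n = 4) in PD and 3.88 ± 0.56 (SD, n = 5) in GS on the log2 scale, a difference of -1.19 (exact p = 0.0556, adjusted p = 0.4995 over all genes). It passed 0.05 with DESeq2 size factors or with 2 added to each count (exact p = 0.0476 in both), and without PD pig 5 (-1.56, exact p = 0.0179). For the other 7 genes the exact p was 0.159 to 0.810 at 6h, and for all 8 it was 0.175 to 0.968 at 12h. In all of these comparisons the ratios of the PD pigs overlapped with those of the GS pigs. Without PD pig 2, 3 genes passed 0.05 at 12h: ERBB2 (-0.96, exact p = 0.0179), ERRFI1 (1.43, exact p = 0.0357) and the ERBB3 row (-0.52, exact p = 0.0357), the last with its direction turned from 0.03. At 6h without that pig 1 of the 8 passed, the ERBB3 row (-0.71, exact p = 0.0179). In that setting 2397 genes of the table passed at 6h and 3595 at 12h, against 1762 and 1025 with all pigs. With 3 PD pigs against 5 GS pigs the smallest p that the permutations allow is 0.0179.

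Before EVLP the groups differed in 4 of the 8 rows, where 29.1% of all genes tested were called. EGFR at 0h was 81.7 to 159.5 CPM in GS and 41.3 to 49.6 CPM in PD, without overlap. It was lower in PD by a log2 difference (PD against GS) of -1.33 (SE 0.22, adjusted p = 0.000521, edgeR), or 2.52-fold. ERRFI1 was 25.3 to 50.4 CPM in GS and 2.90 to 14.9 CPM in PD, and was lower in PD by 4.64-fold (-2.21, SE 0.45, adjusted p = 0.00232). TGFA was 1.35 to 3.20 CPM in GS and 0.947 to 1.34 CPM in PD, from 16 to 24 counts, with the nearest libraries of the groups all but equal. Its difference was -1.13 (SE 0.37, adjusted p = 0.0304), and the call was lost without GS pig 17, 44 or 77 or PD pig 3 or 5 (adjusted p = 0.0514 to 0.0658), and without GS pigs 9 and 17 (adjusted p = 0.0553).

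The ERBB3 row was higher in PD by 2.53 (SE 0.21, adjusted p = 9.36e-06, edgeR), and the 58 ribosomal rows had a median difference of 2.41 (0.21 to 4.67). The betacellulin row was also higher in PD (1.02, SE 0.27, adjusted p = 0.0110), with 55.7 to 97.5 CPM against 26.1 to 57.6 CPM in GS. AREG was higher in PD by 1.68 (SE 0.72) and missed the threshold (adjusted p = 0.0811). It was called by DESeq2 (adjusted p = 0.0351), without GS pig 9 (2.50, adjusted p = 0.0125), without GS pigs 9 and 17 (2.26, adjusted p = 0.0371) and without PD pig 5 (2.02, adjusted p = 0.0453). EREG (0.25, -0.90 to 1.40 over 2 SE), HBEGF (0.06, -0.55 to 0.66) and ERBB2 (0.08, -0.37 to 0.53) were not called, and for HBEGF and ERBB2 a 2-fold difference lies outside the interval. The part of depth, RNA extraction or cell makeup in these 0h differences was not tested.

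**Figure D5:**
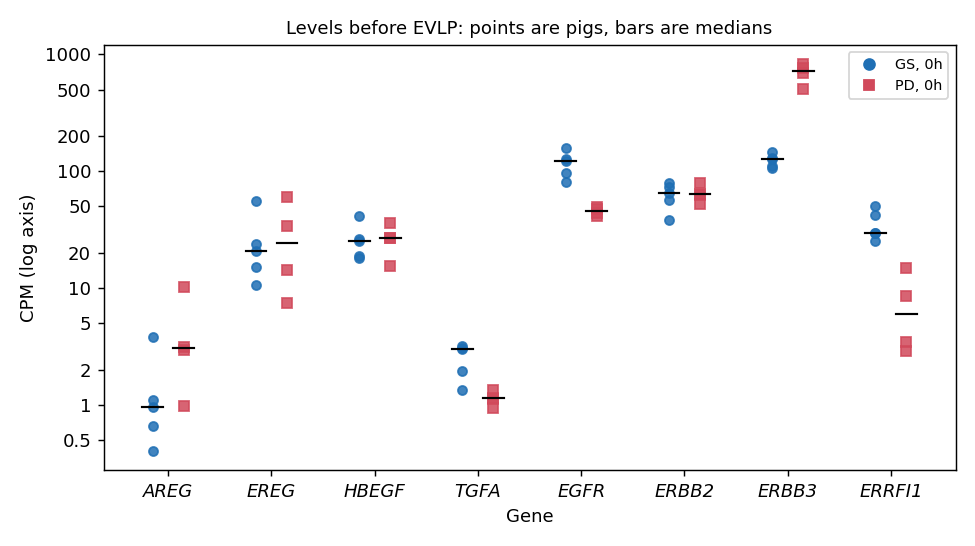
Level of the 8 rows in CPM (log axis) at 0h, with points for pigs (5 GS, 4 PD) and bars for group medians. EGFR, ERRFI1 and the ERBB3 row separate the groups without overlap, and HBEGF, EREG and ERBB2 overlap.

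Cell type markers were followed beside the family genes during EVLP, where 11.1% and 15.7% of all genes were called in GS at 6h and 12h and 0.142% and 5.98% in PD. The summed level of the general epithelial markers EPCAM, CDH1, KRT8 and KRT18 in GS was 411 to 812 CPM at 0h, 962 to 1760 CPM at 6h and 1270 to 1780 CPM at 12h, and 1 of 4 was called higher at 6h (EPCAM) and 3 of 4 at 12h (EPCAM, CDH1 and KRT8). In PD it was 846 to 1010 CPM at 0h, 981 to 1970 CPM at 6h and 1930 to 3620 CPM at 12h, with 0 of 4 called and 4 of 4 at an unadjusted p below 0.05 at 12h (edgeR). Over all genes 3812 of 15545 had such a p in PD at 12h. The alveolar type 2 sum in GS was 5220 to 12100 CPM at 6h and 6670 to 15100 CPM at 12h, with 0 of 6 markers called at either time. The macrophage sum in GS was 1500 to 2790 CPM at 0h and 1680 to 3460 CPM at 12h, with 0 of 5 called at either time. Lymphocyte markers stood lower, at 212 to 354 CPM at 0h and 105 to 244 CPM at 12h in GS, with 1 of 6 called lower at 6h and 2 of 6 at 12h. In PD the alveolar type 2 sum was 26600 to 78200 CPM at 0h, 15600 to 48800 CPM at 6h and 17700 to 90300 CPM at 12h, with 0 of 6 called at either time. The PD macrophage sum was 1490 to 1720 CPM at 0h, 878 to 2020 CPM at 6h and 1160 to 2190 CPM at 12h, with 0 of 5 called. The PD lymphocyte sum was 161 to 271 CPM at 0h, 118 to 185 CPM at 6h and 93.1 to 133 CPM at 12h, without overlap between 0h and 12h, with 0 of 6 called at 6h and 2 of 6 called lower at 12h. These PD calls at 12h were lost without pig 3 and without pig 5.

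Neutrophil and monocyte markers summed to 230 to 565 CPM in GS at 0h, 367 to 457 CPM at 6h and 388 to 578 CPM at 12h. In GS 1 of these 5 was called higher at both times, CD14 (1.28, adjusted p = 0.00159 at 6h and 1.596, adjusted p = 0.000292 at 12h, edgeR), in 5 of 5 pigs. In PD their sum was 745 to 1300 CPM at 0h, 359 to 1380 CPM at 6h and 409 to 1780 CPM at 12h, with 0 of 5 called. The endothelial sum was 1720 to 2560 CPM in GS at 0h, 1310 to 2990 CPM at 6h and 1770 to 3210 CPM at 12h. Of the 5 endothelial markers KDR was called lower in GS at 6h (-1.15, adjusted p = 0.00115, edgeR) and 0 were called at 12h. In PD the endothelial sum was 1130 to 1560 CPM at 0h, 1150 to 2550 CPM at 6h and 1330 to 2030 CPM at 12h, with 0 of 5 called. 

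Of the other lists, alveolar type 1 markers had 1 of 5 called higher in GS at both times, PDPN (1.24, adjusted p = 0.000522 at 6h and 1.42, adjusted p = 0.000131 at 12h, edgeR), which was also called in PD at 12h (1.74, adjusted p = 0.0282). The PD call of PDPN was lost without pig 3 and without pig 5. Of 4 airway epithelium markers tested, TP63 was called lower in GS at 6h (-1.13, adjusted p = 0.00889), and TP63 and SCGB1A1 at 12h. Erythroid markers summed to 0.385 to 10.3 CPM in GS at 0h, 0.658 to 2.95 CPM at 6h and 0.437 to 4.33 CPM at 12h, and HBB was called lower at 6h (-1.57, adjusted p = 0.0246) and at 12h (adjusted p = 0.0189). In PD the erythroid sum was 51.4 to 236 CPM at 0h, 13.6 to 90.6 CPM at 6h and 7.84 to 359 CPM at 12h, with 0 of 2 called. Of 3 mast cell markers 0 were called in GS at 6h and 2 lower at 12h (MS4A2 and HDC). Fibroblast and smooth muscle markers (5 each) had 0 called in either group, as had the 1 mesothelial marker tested in GS, and no mesothelial marker was tested in PD. Airway epithelium and mast cell markers had 0 called in PD at either time, and alveolar type 1 markers 0 at 6h. The markers named here were named after their values had been seen. The part of these cell types in the rise of the ligands was not tested.

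At 0h some of the marker lists were compared between the groups as well, where 29.1% of all genes were called. The alveolar type 2 sum was 6920 to 9630 CPM in GS and 26600 to 78200 CPM in PD, without overlap. Of its 6 markers, 2 were called higher and 1 lower in PD. The airway epithelium sum was 83.1 to 1060 CPM in GS and 634 to 1150 CPM in PD, with overlap and 0 of 4 markers tested called. Counts of called markers at 0h are given only for the lists of this paragraph. The endothelial sum was 1720 to 2560 CPM in GS and 1130 to 1560 CPM in PD, with 1 of 5 markers called higher and 2 lower in PD. The general epithelial sum was 411 to 812 CPM in GS and 846 to 1010 CPM in PD, with 2 of 4 called higher. Erythroid markers (2 of 3 found) summed to 0.385 to 10.3 CPM in GS and 51.4 to 236 CPM in PD, with 1 of 2 called higher. Neutrophil and monocyte markers (5 of 7 found) summed to 230 to 565 CPM in GS and 745 to 1300 CPM in PD, with 2 of 5 called higher and 1 lower.

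The genes whose levels ran most like those of a family gene over the 27 libraries, each pig's mean removed, were listed without regard to function. For AREG they were RHOU (r = 0.97), TRIB3 (0.96) and FTSJ1 (0.96). For EREG they were NUFIP2 (0.96), YOD1 (0.96) and PPP1R15B (0.96). For HBEGF they were BCL10 (0.95), IER5 (0.95) and ZC3H12A (0.95). For ERRFI1 they were KDM6B (0.95), ABL1 (0.95) and SGK1 (0.95). For TGFA they were ZNF629 (0.91), EIF4G1 (0.90) and GSDMA (0.90). For EGFR they were SVIL (0.92), OTUD7B (0.91) and LMO7 (0.90), for ERBB2 PNPLA7 (0.94), RADIL (0.94) and ACY1 (0.93), and for betacellulin TMEM236 (0.94), MAL2 (0.92) and AGPS (0.91). Within the family the highest r were those of EREG with ERRFI1 (0.94) and with AREG (0.93), and of AREG with HBEGF (0.89). ERBB2 had negative r with betacellulin (-0.72), EGFR (-0.44), EREG (-0.41), ERRFI1 (-0.40), TGFA (-0.38), AREG (-0.24) and HBEGF (-0.04). With the ERBB3 row its r was 0.08. All of these are descriptions over libraries that share pigs, times and depth, and carry no test.

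The rest of the pathway was read from 5 lists of 47 genes, of which 46 were found. In GS 2 were called higher and 1 lower at 6h, and 1 higher and 2 lower at 12h, of 45 tested, and in PD 0 were called at 6h and 3 higher at 12h, of 44 tested. Over all genes 11.1% and 15.7% were called in GS and 0.142% and 5.98% in PD. The PD calls of the lists at 12h were lost without pig 3 and without pig 5. The median log2 fold change over the lists was 0.19 and 0.27 in GS and 0.52 and 0.44 in PD, where the medians over all genes were -0.05, -0.08, -0.03 and -0.05. For the 8 family genes the medians were 1.24 and 1.41 in GS and 1.40 and 1.90 in PD. At 6h in PD 5 of the 44 had an unadjusted p below 0.05 (edgeR), as did 1463 of the 15545 genes of the whole table. For the change from 0h, the interaction of group and time called 0 of 44 at 6h and at 12h. In that fit 7 and 2 of the 44 had an unadjusted p below 0.05 (edgeR), as did 1046 and 1069 of all 17884 genes. The 7 at 6h were 5 of the ERK feedback and target genes and 2 of the adaptors and inhibitors.

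Of the 13 ERK feedback and target genes, FOSL1, a FOS-family transcription factor, moved most. Its level was 0.684 to 5.52 CPM in GS at 0h, 5.14 to 163 CPM at 6h and 18.4 to 219.8 CPM at 12h. In PD it was 1.13 to 7.31 CPM at 0h, 14.3 to 38.5 CPM at 6h and 20.0 to 57.6 CPM at 12h. FOSL1 rose by 4.66 (SE 0.73, adjusted p = 0.00103, edgeR) and 5.22 (SE 0.75, adjusted p = 0.000382) in GS, and by 3.63 (SE 0.60, adjusted p = 0.0176) at 12h in PD. DUSP5, an ERK phosphatase, rose in PD at 12h (2.04, SE 0.47, adjusted p = 0.0331), from 9.22 to 42.6 CPM at 0h to 56.0 to 149 CPM. In GS it was at 23.9 to 59.0 CPM at 0h and 13.3 to 207 CPM at 12h. It was not called there (0.77, SE 0.62, adjusted p = 0.342, edgeR), with 3 of 5 pigs higher at 12h. Without PD pig 3 or pig 5, edgeR called 0 genes of the whole table in PD at 12h. The PD calls of FOSL1 and DUSP5 were thus lost in those fits. SPRY1, a feedback inhibitor of receptor tyrosine kinases, fell in GS at 6h (-1.28, SE 0.27, adjusted p = 0.00479), from 96.9 to 320.2 CPM to 52.5 to 130 CPM. PHLDA1 was called lower in GS at 12h (-1.03, SE 0.32, adjusted p = 0.0242) although 2 of the 5 pigs were higher.

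Among the adaptors and inhibitors of the receptor, SHC1, an adaptor that links receptors to RAS, rose in GS at 6h (1.07, SE 0.19, adjusted p = 0.00178, edgeR), from 72.8 to 119 CPM to 98.1 to 343 CPM. It was also called in PD at 12h (1.18, SE 0.30, adjusted p = 0.0434), and is named there after its value was seen. The PD call of SHC1 was lost without pig 3 and without pig 5. The ligand EGF itself fell in GS at 12h (-1.14, SE 0.42, adjusted p = 0.0465), from 0.559 to 0.925 CPM to 0.0683 to 0.494 CPM, which rests on 2 to 67 counts. Of the 5 shedding genes (ADAM10, ADAM17, RHBDF1, RHBDF2 and TIMP3) and the 10 genes of the RAS-ERK cascade, 0 were called against 0h in either group by edgeR, with 3 and 3 at an unadjusted p below 0.05 in GS at 6h, 2 and 4 in GS at 12h, and 0 and 0 in PD at both times. Over all genes 7653 of 18594 had such a p in GS at 6h and 9014 at 12h, and 1463 and 3812 of 15545 in PD, so these counts are not a result about the lists.

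At 0h 11 of the 44 pathway genes tested differed between the groups, 10 lower and 1 higher in PD, where 29.1% of all genes were called, so the count is not a result about the pathway. PHLDA1 had the largest difference (-4.06, SE 0.72, adjusted p = 0.000964, edgeR), with 14.4 to 81.3 CPM in GS and 0.201 to 3.91 CPM in PD. CBL, the ubiquitin ligase that sends activated EGFR to degradation, was lower by -2.07 (SE 0.46, adjusted p = 0.00390), with 30.7 to 117 CPM in GS and 4.96 to 20.6 CPM in PD. SOS2, an exchange factor for RAS, was higher by 1.77 (SE 0.51, adjusted p = 0.0155), with 0.766 to 2.72 CPM in GS and 2.19 to 8.92 CPM in PD. The median over the 44 genes was -0.39, against 0.00 over all genes.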

How the data were processed

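The raw counts per gene were used as the authors deposited them, as whole reads counted on the Ensembl genes of Sscrofa11.1 in 27 libraries. From the study's methods, RNA was extracted by PicoPure or by Trizol and NucleoSpin (which sample by which is not given in the sources used here), and stranded mRNA libraries were sequenced in pairs. The submitters' processing notes name bcl2fastq 2.2.18.12, Cutadapt 1.15, TopHat2 2.0.14, featureCounts of Subread 1.6.0 and DESeq2 1.18.1. The strand setting and the treatment of reads with several places are not given in the sources used here, so TGFA and EGFR, which overlap antisense RefSeq genes (EGFR also an Ensembl gene on its own strand, over 4920 bases), and the ERBB3 row may hold reads of their neighbours.

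Counts were tested with edgeR 4.0.16 (limma 3.58.1, R 4.3.3) with filterByExpr and TMM scaling, using the robust quasi-likelihood F test (two-sided) and Benjamini-Hochberg adjustment over all genes tested. Each group was fitted alone, with the pig as replicate block, since the 3 biopsies of a pig come from the same lungs. Residual profiles of libraries of 1 pig had a mean r of 0.513 in GS (0.344 to 0.73) and 0.112 in PD (-0.265 to 0.462). SE is the absolute log2 fold change divided by the root of F. The ratios of the 9 pigs were compared by exact permutation. Over the 351 pairs of libraries, chi-square per degree of freedom was at least 36.4, so no pair differed by as little as sampling noise. Depth per library is given above and covers counts on genes. Sequence was read from the RefSeq copy of Sscrofa11.1 with samtools 1.23.1.

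The 8 family genes were named in full, and of the pathway lists at most 2 called genes with the largest rise and 2 with the largest fall in each comparison. For each family gene the 3 most like genes by Pearson r of pig-centred log2 CPM were named. The members, lists and tests were chosen with earlier results of these data known. Alternatives were no replicate block, DESeq2 1.42.0, size factors of DESeq2 in edgeR, keeping genes with low counts, all libraries in 1 fit, no fold threshold, 2 added to each count, a rank-sum test and each pig left out in turn. Leaving out GS pigs 9 and 17 together was added after the data had been seen. The steps were tested on simulated data first.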

Additional observations from a re-analysis of the deposited data

Results flagged for a closer look

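EREG in GS pig 17 at 6h had a log2 CPM of 6.99, lower than the other 4 GS libraries at 6h, which lay between 7.23 and 7.30, so the gap to the nearest library was large beside the range of the group. EREG in GS pig 9 at 12h had a log2 CPM of 6.50, lower than the other 4 GS libraries at 12h, which lay between 7.62 and 7.92. In all 48 groups of levels were examined in this way. The rule has a nominal rate of about 1 in 20, and its rate in these data was not tested. Pig 9 also had the highest EREG of the GS pigs at 0h and the lowest HBEGF and ERRFI1 of the GS pigs at 12h.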

How the results depend on the processing

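Of the counts of family genes called, those in GS at 6h and 12h (4 and 4), in both comparisons of 12h with 6h, in both interactions and at 0h (4) stayed within 1.5 times under every alternative run. Single calls within these counts still changed: the HBEGF call in GS at 6h and the TGFA call at 0h were lost in some settings, as given above. In PD at 6h the count of 0 became 4 with DESeq2, 4 with all libraries in 1 fit and 1 without the filter on low counts, and ranged from 0 to 3 when a pig was left out. In PD at 12h the count of 3 became 5 with DESeq2 and 5 with all libraries in 1 fit, and ranged from 0 (without pig 3 or pig 5) to 6 (without pig 2). By exact permutation the count of 0 at 6h became 1 with DESeq2 size factors and 1 with 2 added to each count, and ranged from 0 to 1 when a pig was left out. At 12h it ranged from 0 to 3, and the ERBB3 difference of 0.03 ranged from -0.5219 (without PD pig 2) to 0.4168 when a pig was left out. The cause of these shifts was not tested.

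Without the replicate block the counts over all genes went from 2057 to 1123 and from 2911 to 1896 in GS, and from 22 to 100 and from 930 to 1460 in PD, at 6h and 12h. Among the family genes the block changed only the call of ERRFI1 in PD at 12h (2.26, adjusted p = 0.0337 without it). DESeq2 called 428 and 2560 genes in PD, the fit of all libraries 479 and 3300 in PD, 414 in PD at 12h against 6h and 1219 in GS at 6h, and the fit without the filter 103 in PD at 6h. Without the fold threshold GS had 5295 and 7136 calls. Leaving out a pig gave 0 to 98 calls in PD at 6h and 0 to 3826 at 12h, 1318 in GS at 6h without pig 44, and 248 and 151 interactions at 6h and 12h without PD pig 2, where all pigs gave 0. The permutation test then passed 654 to 2883 genes at 6h and 435 to 3595 at 12h. Without GS pigs 9 and 17 together (added after the data had been seen) it passed 485 and 506. In the same setting the counts of family genes called stayed at 4 in GS at 6h and 12h and 0 in both interactions. Over all genes edgeR then called 2760 and 3585 in GS, against 2057 and 2911 with all pigs, and 0 in both interactions. The rank-sum test gave 1059 genes at 6h and 675 at 12h where the permutation test gave 1762 and 1025. AREG and TGFA had the lowest counts of the family genes, with as few as 14 and 8 in a library. How far depth limited each gene was not tested.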
